A study of Homo sapiens with 33 samples.

Results

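The effect of EED226 on gene expression in Karpas422 cells was compared between 48 and 72 h of treatment. For every gene the log2 difference between EED226 and DMSO at 48 h was subtracted from the same difference at 72 h, and this difference of differences is called the change of the effect. Its estimate used 12 of the 33 arrays of the series: 3 of cells given DMSO for 48 h, 3 of cells given EED226 for 48 h, and 3 of each at 72 h. The spread behind its test came from all 33 arrays. All 19775 genes with a probe set of their own symbol were tested, each through its brightest probe set over the 33 arrays. Of these, 101 genes passed limma's test with a Benjamini-Hochberg adjusted p under 0.05.

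Karpas422 is a human diffuse large B cell lymphoma line, described in the title of the series as EZH2 mutant, and all groups are cultures of this 1 line. Treated cells received 5 µM EED226, an allosteric PRC2 inhibitor that binds the EED subunit, and control cells received the solvent DMSO. The design text of the series speaks of an EZH2 inhibitor and the treatment protocol also names the compound EI1, but every treated sample is titled EED226, and groups follow the titles. The replicates are called biological triplicates, with no statement of a shared day or batch, so p-values measure the spread between these cultures.

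PRC2 is the Polycomb complex that methylates lysine 27 of histone H3, a mark of silenced genes; EZH2 carries the catalytic activity, and EED binds the mark and stimulates it. When the complex is inhibited the mark is lost gradually, as cells divide and histones are replaced. Type I interferons such as interferon beta are secreted when cells sense viral or misplaced nucleic acids; they act through a surface receptor and a STAT and IRF9 complex that binds the interferon-stimulated response element in the promoters of many effector genes.

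Most genes that passed had a higher effect at 72 h, and interferon-response genes stood among the largest changes. The 8 stretches below are shown because these genes were among those with the largest rises and carry the core letters of the interferon-stimulated response element, GAAANNGAA on either strand, upstream of a listed start. They are RefSeq sequences of GRCh38.p14, 100 bases each, 5′ to 3′ on the strand of the gene, and capitals mark the matching letters. The stretches lie at chr14:94110590-94110689 (plus strand) for IFI27, chr7:150685559-150685658 (plus) for GIMAP2, chr3:172523526-172523625 (minus) for TNFSF10 and chr2:162318788-162318887 (minus) for IFIH1. Those of SIDT1, RTP4, TMEM140 and RSAD2 lie at chr3:113532443-113532542, chr3:187368281-187368380, chr7:135147936-135148035 and chr2:6865750-6865849, all on the plus strand.
IFI27: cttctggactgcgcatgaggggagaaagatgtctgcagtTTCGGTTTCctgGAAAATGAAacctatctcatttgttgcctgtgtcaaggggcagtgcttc
GIMAP2: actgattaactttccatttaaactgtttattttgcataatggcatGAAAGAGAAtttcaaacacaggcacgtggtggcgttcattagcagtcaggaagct
TNFSF10: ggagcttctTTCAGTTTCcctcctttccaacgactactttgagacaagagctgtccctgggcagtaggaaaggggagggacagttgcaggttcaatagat
IFIH1: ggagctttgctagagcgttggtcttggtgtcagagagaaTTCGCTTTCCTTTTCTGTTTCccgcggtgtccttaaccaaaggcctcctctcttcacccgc
SIDT1: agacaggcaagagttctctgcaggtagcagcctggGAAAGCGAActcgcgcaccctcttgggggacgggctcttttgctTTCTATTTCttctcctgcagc
RTP4: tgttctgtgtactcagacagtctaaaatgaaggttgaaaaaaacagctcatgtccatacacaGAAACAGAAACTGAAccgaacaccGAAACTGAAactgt
TMEM140: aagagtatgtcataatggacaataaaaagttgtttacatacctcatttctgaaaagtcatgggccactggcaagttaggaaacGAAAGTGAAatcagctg
RSAD2: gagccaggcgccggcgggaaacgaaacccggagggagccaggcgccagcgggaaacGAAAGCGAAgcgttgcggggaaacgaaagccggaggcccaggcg

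The letters GAAANNGAA stood in the promoter window, 250 bases before to 50 after a listed start, of 27 of the 71 rising genes that had an entry (38.0%), against 1370 of 15384 measured genes with an entry (8.91%). Counted per window, 25.9% of 116 windows of rising genes and 6.82% of 21490 windows of all genes held them. None of the 6 falling genes with an entry did. The stretch of RTP4 held 3 matches, of which 2 overlap, and that of IFIH1 also held 3 that overlap. Other letters were about as frequent in the rising genes as in all genes: CCAAT, the NF-Y box, in 42.3% against 41.7%, CACGTG, the E box, in 9.86% against 10.9%, and TTTNNCGC, the E2F core, in 9.86% against 10.7%. TTTGAA, the cell cycle homology region, was in 19.7% against 15.6%, and ATTGCATCA, the amino acid response element, in 0 of 71 genes against 0.241%. All were searched on both strands, windows of 1 gene can overlap, and a match describes letters, not a bound site. The windows of IFIH1 and its neighbour GCA, which is transcribed in the opposite direction, share some of these letters.

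Of the 19775 genes, 93 (0.47%) had a higher effect at 72 h than at 48 h and 8 (0.0405%) a lower one. The rises were the larger changes: 48 of the 93 were at least 2-fold (1 or more on the log2 scale), with a median of 1.03 and a range from 0.37 to 2.75, while none of the 8 falls reached 2-fold and their median was -0.49. Over all genes the median change was 0.0011, and 1674 genes had an unadjusted p under 0.05. For all 93 and all 8, the 3 treated values at 72 h, less the DMSO mean, did not overlap the 3 at 48 h, as for 14.6% of all genes upward and 15.3% downward. None of the 101 genes had a fitted effect of smaller size at 72 h than at 48 h, and no gene whose 48 h effect passed the test changed in the opposite direction. The fitted effect changed sign for 1 gene, GCA, from -0.29 at 48 h, which did not pass (adjusted p = 0.111), to 0.47 at 72 h. The number of rises ranged from 53, in a fit that left out replicate 3 of EED226 at 72 h, to 208, with array weights; replicate 1 of DMSO at 48 h or at 72 h left out gave 56 and 61. The number of falls ranged from 2, with 1 array left out, to 65 with array weights, and was 26 beside 94 rises with dim genes left out. The change kept its sign for all 101 genes in every alternative that tested them. Several of these alternatives leave the estimate itself unchanged, so the sign could not differ there, and fits with 1 array fewer reuse the other arrays.

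The change lay mainly in the treated arrays. Between 48 and 72 h, 461 genes rose (2.33%) and 271 fell (1.37%) in EED226 cells, while in DMSO cells limma called 0 genes (0%) in either direction, with 712 at an unadjusted p under 0.05. All 93 rising genes rose in the EED226 arrays, by 0.32 to 2.89 with a median of 1.02, and their DMSO change lay between -0.39 and 0.43 with a median of 0.02. Of the 8 falling genes, 7 fell in the EED226 arrays; the other, CRYBG1, changed by -0.19 there and by 0.18 in DMSO. Of the 93, 32 had DMSO means below 4.07, the lowest array median, at both times; for these the text gives log2 differences and no fold, since how far such probe sets stand above background is not known from these values. In bulk RNA, a change within each cell and a change in the share of cells with the transcript cannot be told apart.

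**Figure D1:**
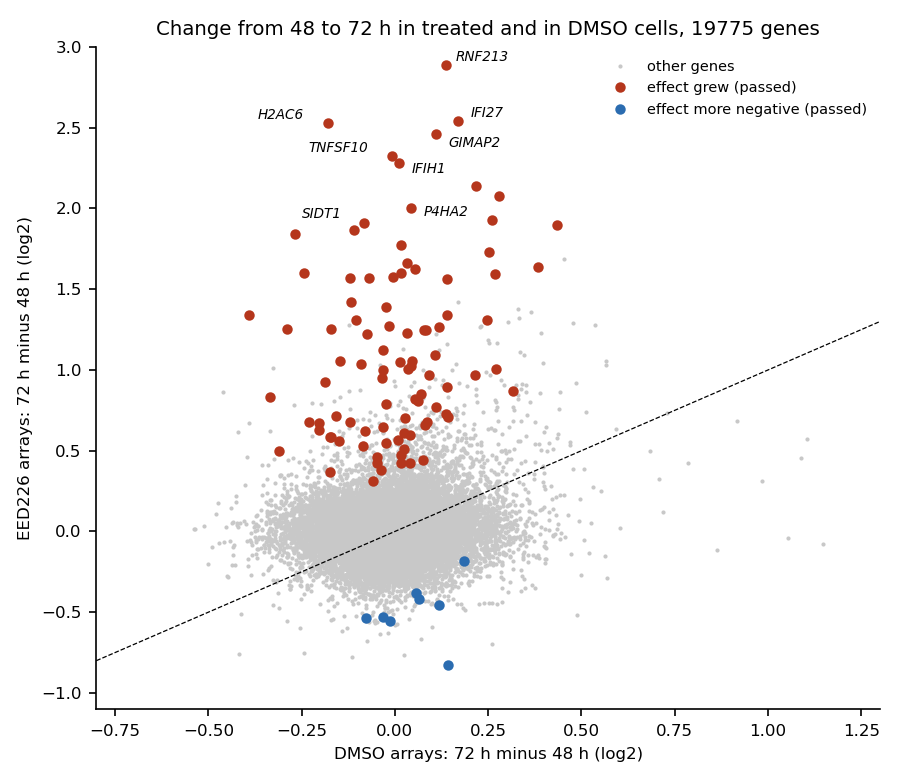
The log2 change from 48 to 72 h in EED226 arrays (vertical axis) is plotted against that in DMSO arrays (horizontal axis) for 19775 genes, 1 point each, with the dashed line marking equal change. The 93 genes whose effect grew (red) reach 2.89 in the EED226 arrays and stay between -0.39 and 0.43 in the DMSO arrays; the 8 whose effect became more negative are blue.

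IFNB1, which encodes interferon beta, was dim in DMSO cells and rose mainly after 48 h. Its log2 levels were 3.30, 3.07 and 3.06 with DMSO and 3.88, 3.44 and 3.94 with EED226 at 48 h, and 3.02, 3.15 and 2.92 with DMSO and 5.43, 5.32 and 6.12 with EED226 at 72 h. The groups did not overlap at either time, but the treated arrays passed the array medians, which lay between 4.07 and 4.12, only at 72 h. The difference from DMSO grew from 0.61 ± 0.20 (SE, n = 3; limma adjusted p = 0.0447) to 2.59 ± 0.20, a change of 1.97 ± 0.28 (adjusted p = 0.000148). Of the 13 measured interferon genes, IFNB1 alone passed, beside 0.47% of all genes with a higher effect. All 13 had DMSO means below the lowest array median at both times. The changes of the other 12 lay between -0.42 for IFNG, which encodes interferon gamma (adjusted p = 0.407), and 0.49 for IFNL1, a lambda interferon (adjusted p = 0.566).

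Of 30 measured genes of nucleic acid sensors and interferon factors, 5 rose and 0 fell, beside 0.47% and 0.0405% of all genes, and the median change was 0.21. The 5 were IFIH1, AIM2, ZBP1, RIGI and MYD88; AIM2 and RIGI lay outside the rule for named genes and are given as members that passed. IFIH1, the MDA5 sensor of long double-stranded RNA, had levels of 3.78, 3.52 and 3.48 with DMSO and 6.09, 6.53 and 6.36 with EED226 at 48 h, and of 3.67, 3.86 and 3.27 with DMSO and 8.73, 8.27 and 8.82 with EED226 at 72 h. Its treated arrays were already clear of DMSO at 48 h and moved up together again by 72 h. The difference went from 2.73 ± 0.17 to 5.01 ± 0.17, and the change was 2.27 ± 0.24 (adjusted p = 2.14e-06).

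ZBP1, a sensor of left-handed nucleic acids that can start necroptosis, was a late member. It stood at 3.70, 3.90 and 3.99 with DMSO and 4.32, 4.35 and 4.13 with EED226 at 48 h, and at 3.72, 3.99 and 3.93 against 5.92, 5.85 and 5.83 at 72 h. The 48 h values lay close together, and the difference of 0.40 ± 0.14 did not pass (adjusted p = 0.0749); at 72 h it was 1.99 ± 0.14 and the change was 1.59 ± 0.20 (adjusted p = 2.75e-05). AIM2, a sensor of cytosolic DNA, went from a difference of 2.66 to 4.29 (change 1.63 ± 0.30, adjusted p = 0.00413). RIGI, the sensor of short RNA with 5′ triphosphates, started from a bright DMSO level of 8.81 ± 0.04 (SD, n = 3) and changed by 0.75 ± 0.13 (adjusted p = 0.00227). MYD88, the adaptor of Toll-like receptors, changed by 0.57 ± 0.09 (adjusted p = 0.00105) and was bright in all groups.

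Other sensors and factors did not pass. CGAS, the sensor that makes the second messenger for STING, had a change of -0.51 (adjusted p = 0.548), and the adaptors MAVS and STING1 had 0.08 and -0.11. The receptor chains IFNAR1 and IFNAR2 had -0.07 and 0.16, and IRF9, the DNA-binding partner of the STAT complex, and IRF7, which amplifies interferon transcription, had 0.34 and 0.45 (adjusted p = 0.379 and 0.40). TLR7, the endosomal RNA receptor, had a change of 1.24 with an adjusted p of 0.174. These genes were chosen after their values were seen, as the best known of the list.

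**Figure D2:**
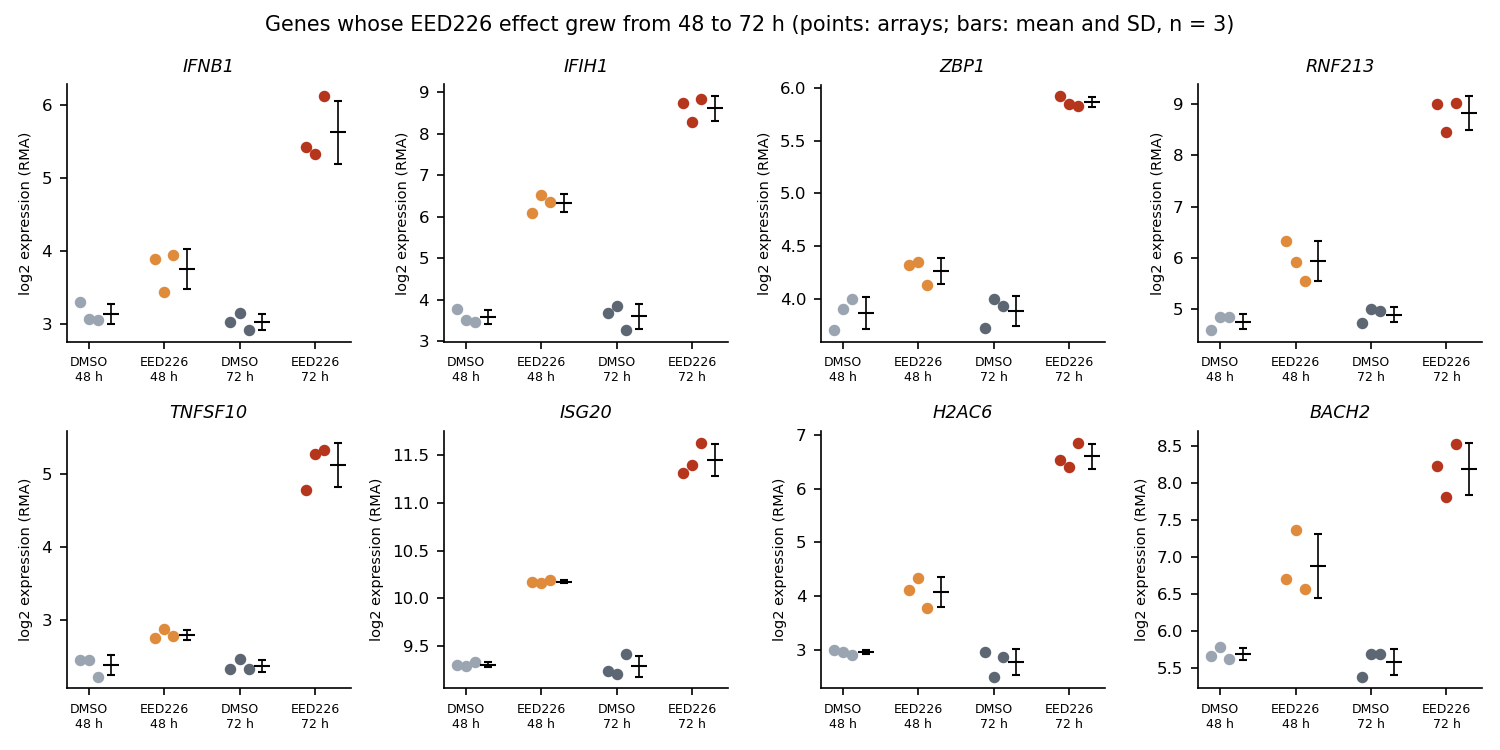
Log2 expression in each of the 12 arrays (points) with the mean and SD of 3 (bars) for 8 genes whose EED226 effect grew, in the groups DMSO 48 h, EED226 48 h, DMSO 72 h and EED226 72 h. In every panel the EED226 72 h arrays lie above the other 9; IFNB1 goes from 3.44 to 3.94 at 48 h to 5.32 to 6.12 at 72 h.

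Of the 46 interferon effectors measured, 11 rose further between 48 and 72 h and 0 fell, beside 0.47% and 0.0405% of all genes. The median change was 0.60, and 45 of the 46 changes were above 0. The 11 were IFI27, RTP4, RSAD2, LGALS3BP, OASL, ISG20, IFI35, MX2, USP18, SAMD9L and DTX3L, and other settings called between 8 and 23. The effect at 48 h was already positive and past the test for 40 of the 46, beside 6.76% of all genes, and at 72 h for 43, beside 11.7%. Most of the list was thus higher with EED226 before the interval began.

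ISG20, an exonuclease that degrades viral RNA, was the effector with the smallest p. Its levels were 9.30, 9.29 and 9.33 with DMSO and 10.18, 10.16 and 10.19 with EED226 at 48 h, and 9.24, 9.21 and 9.41 with DMSO and 11.31, 11.40 and 11.63 with EED226 at 72 h. Each group was tight and the treated groups were clear of each other by more than 1 log2 unit; the change was 1.29 ± 0.15 (adjusted p = 1.27e-05). IFI27, a mitochondrial and nuclear-membrane protein much used as an interferon marker, had the largest change of the list. It was at 7.38, 6.91 and 7.31 with DMSO and 9.22, 9.09 and 9.88 with EED226 at 48 h, and at 7.33, 7.17 and 7.61 against 11.70, 11.72 and 12.39 at 72 h. Its fold difference rose from 4.59 to 23.8, a change of 2.37 ± 0.40 (adjusted p = 0.00207).

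RTP4, an interferon-induced chaperone of receptors, went from 5.24-fold to 19.9-fold (change 1.92 ± 0.32, adjusted p = 0.00147). RSAD2, or viperin, which makes a chain-terminating nucleotide, went from 6.87-fold to 21.9-fold (1.67 ± 0.34, adjusted p = 0.0125); without EED226 72 h replicate 3 its adjusted p was 0.067. OASL, which enhances RIGI signalling, changed by 1.33 ± 0.26 and LGALS3BP, a secreted glycoprotein, by 1.47 ± 0.26 (adjusted p = 0.00956 and 0.00315). MX2, a dynamin-like restriction factor, and IFI35, a partner of NMI, changed by 1.17 ± 0.19 and 1.20 ± 0.19 (adjusted p = 0.00122 and 0.00105). USP18, which removes ISG15 from proteins and dampens the interferon receptor, changed by 1.06 ± 0.23 (adjusted p = 0.0232), a call lost in 8 of the 12 fits that leave out 1 array. The antiproliferative SAMD9L and the ubiquitin ligase DTX3L changed by 0.74 ± 0.13 and 0.59 ± 0.12. The call of SAMD9L was lost with the mean of its probe sets (0.68, adjusted p = 0.277), and that of DTX3L in 5 of the 12.

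Other members with a strong effect at 48 h had a change that did not pass. IFIT1, IFIT3 and IFIT2, which bind foreign RNA, had effects of 2.09, 1.87 and 2.61 at 48 h and changes of 0.57, 0.58 and 0.99 (adjusted p = 0.299, 0.322 and 0.0953). ISG15, the ubiquitin-like modifier, and MX1 had changes of 0.18 and 0.30 (adjusted p = 0.959 and 0.701). The lowest change was -0.18 for GBP4. These were chosen after their values were seen.

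Of 19 measured genes of MHC class I presentation, 18 had a positive change, the median was 0.35 and 1 rose, beside 0.47% of all genes. Other settings called 0 to 7 of them, and fits that leave out 1 array called 0 to 1. TAP1, which pumps peptides into the endoplasmic reticulum for loading, stood at 10.57, 10.44 and 10.29 with DMSO and 11.04, 10.999 and 10.91 with EED226 at 48 h, and at 10.52, 10.46 and 10.35 against 11.52, 11.60 and 11.54 at 72 h. The groups were separate at both times and the gap was wider at 72 h. The change was 0.56 ± 0.13 (adjusted p = 0.0372); the call was lost in 11 of the 12 fits that leave out 1 array and with centred array medians (adjusted p = 0.116). PSMB10, an immunoproteasome subunit, and TAP2, the partner of TAP1, had changes of 0.48 ± 0.12 and 0.49 ± 0.13 (adjusted p = 0.0659 and 0.0989). No MHC class II gene of the 16 measured passed, and the median was 0.08; CTSS, the protease that trims the invariant chain, and CD74, that chain, had 0.34 and 0.26 (adjusted p = 0.22 and 0.223).

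RNF213, a giant ubiquitin ligase with an ATPase core that is itself induced by interferon, had the largest change of all genes. Its levels were 4.60, 4.84 and 4.85 with DMSO and 6.33, 5.93 and 5.55 with EED226 at 48 h, and 4.73, 5.00 and 4.97 with DMSO and 8.996, 8.45 and 9.03 with EED226 at 72 h. The treated arrays spread over less than 1 log2 unit at each time and were far apart between times. Its difference went from 2.26-fold to 15.2-fold, a change of 2.75 ± 0.25 (adjusted p = 1.59e-07), and its 7 other probe sets had the same sign. GIMAP2, a GTPase of lymphocyte lipid droplets, went from a log2 difference of 1.55 to 3.90 (change 2.35 ± 0.21, adjusted p = 8.63e-08). TMEM140, named for its sequence above, had a difference of 0.39 that did not pass at 48 h and one of 2.08 at 72 h.

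Among 33 genes of the TNF family and NF-kB, 2 rose and none fell, beside 0.47% and 0.0405% of all genes, and the median was 0.01. Both have roles in cell death. TNFSF10 encodes TRAIL, the ligand of death receptors, and its levels were 2.46, 2.46 and 2.22 with DMSO and 2.75, 2.88 and 2.77 with EED226 at 48 h, and 2.33, 2.46 and 2.32 with DMSO and 4.78, 5.27 and 5.32 with EED226 at 72 h. Only the 72 h treated arrays were above the array medians, and TNFSF10 met the level rule for named genes only through them. The log2 difference went from 0.42 to 2.76, a change of 2.33 ± 0.19 (adjusted p = 1.63e-08). TNFRSF21, death receptor 6, had treated levels of 3.11, 3.61 and 3.34 at 48 h and 4.97, 4.91 and 4.97 at 72 h, against DMSO levels of 2.80, 3.17 and 3.11 and then 2.69, 3.04 and 2.63. At 48 h the treated and DMSO values overlapped (difference 0.33, adjusted p = 0.244) and at 72 h they did not; the change was 1.84 ± 0.22 (adjusted p = 1.96e-05).

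In the BCL2 family, 1 of 15 members rose, beside 0.47% of all genes: MCL1, which restrains apoptosis. Its change of 0.38 ± 0.09 (adjusted p = 0.045) had 3 of its 5 other probe sets on the opposite side of 0, and with the mean of its probe sets it was 0.09 (adjusted p = 0.943). BCL2A1, another survival member, had 0.90 ± 0.23 and HRK, a death-promoting member, had -0.73 ± 0.22; neither passed (adjusted p = 0.082 and 0.205). CASP1, the inflammatory caspase, and CARD16, its neighbour on chromosome 11 and a near copy of its first domain, changed by 1.16 and 1.57; the copies share sequence, so their signals may be mixed. CASP1 did not pass with only the 12 arrays in the fit (adjusted p = 0.0918). These 2 were chosen after their values were seen, as 1 of the 3 pairs of genes among the 101 that are next neighbours among the measured genes in the RefSeq order. The other pairs were IFIH1 with GCA and SAMD9L with HEPACAM2. GCA, a calcium-binding protein, had an effect of 4.46 at day 6; the call of its change was lost in 5 of the 12 fits that leave out 1 array.

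Among the histone genes, H2AC6 had the second-largest fitted change of all genes, from DMSO levels below the array medians. Of 19 measured members 3 rose and 0 fell, beside 0.47% and 0.0405% of all genes, and the median was 0.04. H2AC6, a gene of histone H2A, had levels of 2.99, 2.96 and 2.91 with DMSO and 4.12, 4.34 and 3.78 with EED226 at 48 h, and 2.96, 2.49 and 2.87 with DMSO and 6.55, 6.42 and 6.86 with EED226 at 72 h. All treated arrays exceeded all DMSO arrays, and the later ones stood more than 2 log2 units above the earlier ones. It met the level rule only through the 72 h treated arrays. The log2 difference went from 1.13 to 3.84, a change of 2.71 ± 0.22 (adjusted p = 1.63e-08). H2BC21, a gene of histone H2B, had no called difference at 48 h (0.03 ± 0.14) and one of 1.16 ± 0.14 at 72 h (change 1.13 ± 0.19, adjusted p = 0.00213). H4C8, of histone H4, changed by 1.17 ± 0.27 (adjusted p = 0.0477), a call lost in 10 of the 12 fits that leave out 1 array and with renewed quantile normalization (adjusted p = 0.0613). Most transcripts of histone genes are alike and lack a poly(A) tail, so a 3′ labelled probe set measures the polyadenylated part and may share signal between copies.

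Several of the largest rises lay in none of the interferon lists. HEPACAM2, a cell adhesion protein of the immunoglobulin family, had levels of 3.52, 3.11 and 3.14 with DMSO and 5.51, 6.14 and 6.11 with EED226 at 48 h, and 3.04, 2.95 and 2.97 against 7.79, 7.61 and 7.88 at 72 h. It was far above DMSO at both times and the change was 2.11 ± 0.23 (adjusted p = 4.47e-06). SIDT1, a lysosomal transporter of double-stranded RNA, went from a log2 difference of 0.60 to 2.59 (change 2.00 ± 0.24, adjusted p = 1.27e-05). P4HA2, a collagen prolyl hydroxylase, went from a log2 difference of 1.71 to 3.67 (change 1.96 ± 0.25, adjusted p = 3.78e-05), while 1 of its 2 other probe sets lay on the opposite side of 0. It was the 1 member of 31 hypoxia and glycolysis genes that passed, beside 0.47% of all genes with a rise. P4HA1, the paralogue of P4HA2, had a change of -0.41 (adjusted p = 0.0792).

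RIN2, an exchange factor for the GTPase RAB5, had the largest 48 h effect of the named rises, 3.01 ± 0.16, and reached 4.80 ± 0.16 at 72 h (change 1.80 ± 0.23, adjusted p = 5e-05). AGR2, a disulfide isomerase of secretory cells, and AGBL2, a carboxypeptidase that trims tubulin, changed by 1.76 ± 0.25 and 1.73 ± 0.30 (adjusted p = 0.000175 and 0.00207). GADD45A, a stress-induced brake on the cell cycle, changed by 0.98 ± 0.16 (adjusted p = 0.00117). It was the 1 member of 23 growth arrest and FOXO targets that passed, beside 0.47% of all genes with a rise. The median of that list was 0.23. Of the 93 rises, 18 lay in the lists of interferon effectors, sensors, interferon genes and MHC class I, and 64 lay in no list at all. Those lists hold 46, 30, 13 and 19 of the 19775 measured genes, in that order.

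Among 3 lists of B cell genes, 1 of 28, 2 of 19 and 0 of 25 members rose, beside 0.47% of all genes. BACH2, a transcriptional repressor that holds B cells back from becoming plasma cells, had levels of 5.66, 5.78 and 5.62 with DMSO and 6.71, 7.37 and 6.57 with EED226 at 48 h, and 5.38, 5.69 and 5.69 against 8.23, 7.82 and 8.52 at 72 h. The treated groups did not overlap; the change was 1.41 ± 0.26 (adjusted p = 0.00449; 0.0564 with only the 12 arrays in the fit). It was the member that passed of the 28 germinal-centre factors, and TCL1A and FOXO1 had changes of 0.97 and 0.34 (adjusted p = 0.307 and 0.299). In the plasma cell list, 2 of 19 passed: JCHAIN, which joins the units of IgM and IgA, and ZBP1, counted among the sensors above. JCHAIN changed by 1.64 ± 0.37 (adjusted p = 0.0372), a call lost in 9 of the 12 fits that leave out 1 array and with centred array medians (adjusted p = 0.0558). XBP1, a driver of the plasma cell secretory programme, had a change of -0.52 ± 0.19 that did not pass (adjusted p = 0.37). None of 25 B cell receptor signalling genes passed.

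The arrays at 24 h and at day 6, the last time of the series, did not enter the estimate of the change, only its shared spread. They show the course before and after. At 24 h, 10 of the 93 rising genes were already higher with EED226 and none was lower, beside 0.834% higher and 0.0354% lower among all genes, and the median effect was 0.17. The 10 included RIN2, GIMAP2, GADD45A and PECAM1, with 0.93, 0.77, 0.67 and 0.81. The medians at 48 and 72 h, which the change itself uses, were 0.69 and 2.01; 75 of the 93 passed at 48 h and all 93 at 72 h. At day 6 all 93 were higher, beside 23.7% of all genes, with a median of 3.10. DMSO day 6 replicate 3 correlated with the other two of its group with r of 0.990 and 0.991, against 0.998 between those; without it all 93 were still called and the median was 3.12.

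The genes differed in their course after 72 h. The effect was larger at day 6 than at 72 h for 90 of the 93 (88 without DMSO day 6 replicate 3); RIGI had 2.01 and 1.96, and MX2 had 3.16 and 3.27. Other genes went on: H2AC6 from 3.84 to 7.17, TNFRSF21 from 2.17 to 5.95 and TNFSF10 from 2.76 to 5.10. TMEM255A, named as the rise with the smallest p among those not called at 48 h, had 0.08 at 48 h, 1.49 at 72 h and 4.49 at day 6. These differences between 72 h and day 6 were not tested.

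**Figure D3:**
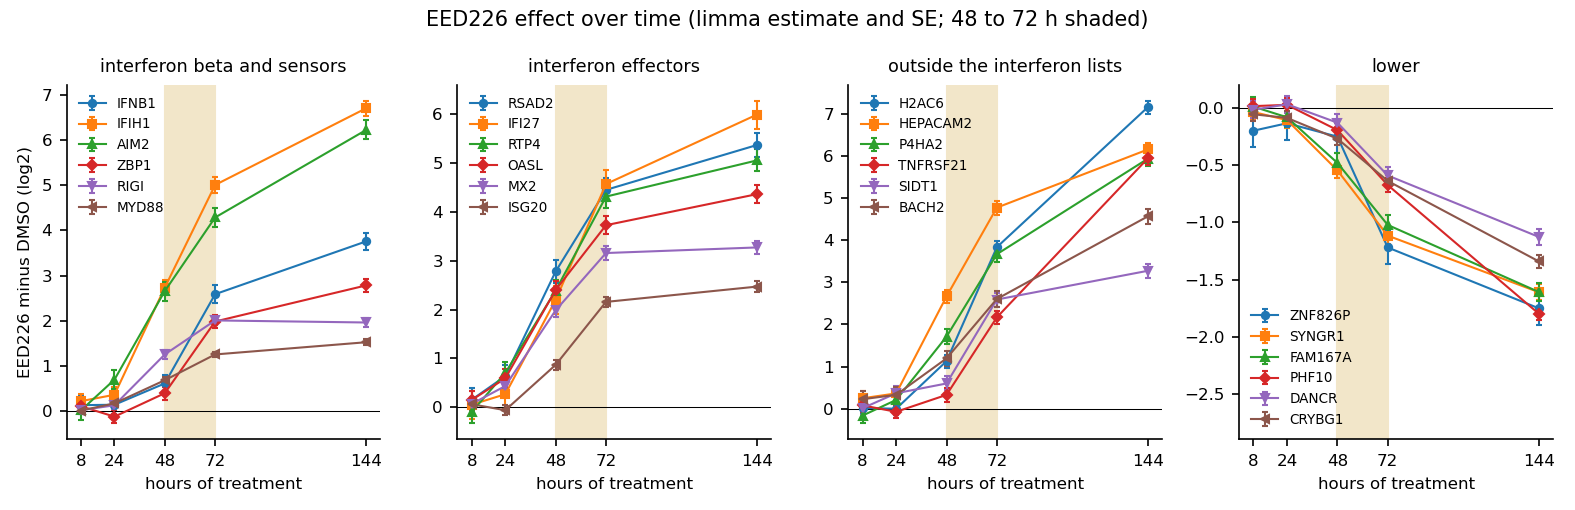
The EED226 effect (EED226 minus DMSO, log2, limma estimate and SE) is plotted against hours of treatment for 24 genes in 4 panels, with the interval from 48 to 72 h shaded. IFNB1 has effects of 0.14, 0.61, 2.59 and 3.76 at 24, 48 and 72 h and day 6, while RIGI has 2.01 and 1.96 at the last 2 times.

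The 8 genes with a lower effect at 72 h were small changes of well-expressed genes, and none lay in any list. ZNF826P, a zinc finger pseudogene, had levels of 7.21, 7.36 and 7.32 with DMSO and 7.10, 7.12 and 6.92 with EED226 at 48 h, and 7.29, 7.50 and 7.53 against 6.35, 6.33 and 5.98 at 72 h. The treated arrays were slightly below DMSO at 48 h (difference -0.25, adjusted p = 0.355) and clearly below at 72 h; the change was -0.97 ± 0.20 (adjusted p = 0.019), a call lost in 6 of the 12 fits that leave out 1 array. SYNGR1, a protein of synaptic-like vesicles, had 8.43, 8.42 and 8.51 with DMSO and 7.94, 7.80 and 7.98 with EED226 at 48 h, and 8.55, 8.53 and 8.64 against 7.39, 7.52 and 7.46 at 72 h. Both differences passed, and the change was -0.57 ± 0.10 (adjusted p = 0.00207).

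PHF10, a subunit of the PBAF chromatin remodeller, went from a difference of -0.19 to -0.67 (change -0.48 ± 0.08, adjusted p = 0.00238). Levels of PHF10 at 72 h were 9.84, 9.78 and 9.76 with DMSO and 9.06, 9.23 and 9.06 with EED226. SYNGR1 and PHF10 kept their call without any 1 array, but when all probe sets of a gene were averaged the adjusted p was 0.547 and 0.091. The long non-coding RNAs DLEU1 and DANCR had changes of -0.49 ± 0.11 and -0.46 ± 0.10 (adjusted p = 0.0416 and 0.0323). RPL22L1, a paralogue of a ribosomal protein, FAM167A, and CRYBG1, a protein linked to actin, had -0.44, -0.54 and -0.37. The calls of these 5 genes were lost in 7 to 11 of the 12 fits that leave out 1 array. At day 6 all 8 were lower (27.3% of all genes), with a median of -1.54 against -0.26 and -0.72 at 48 and 72 h.

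**Figure D4:**
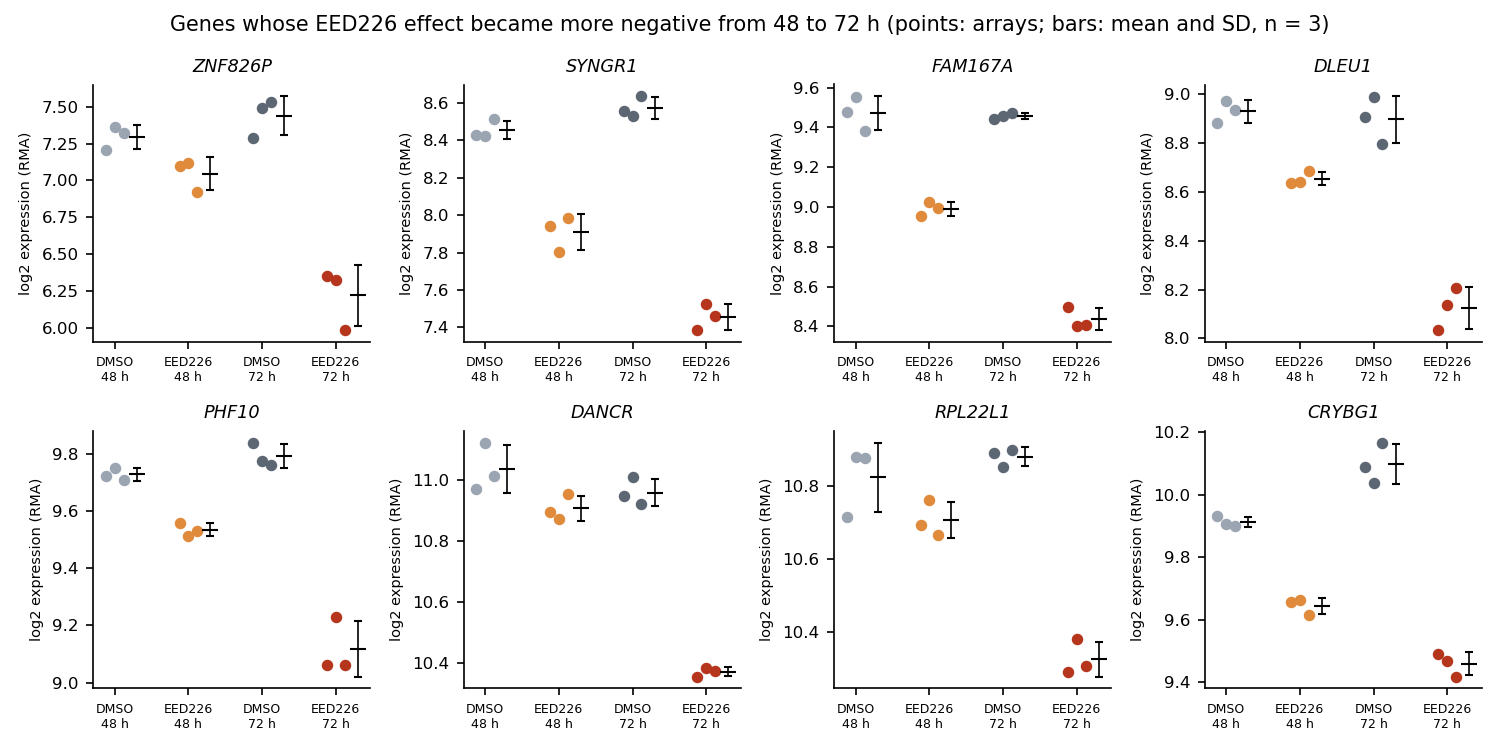
Log2 expression in each of the 12 arrays (points) with the mean and SD of 3 (bars) for the 8 genes whose EED226 effect became more negative. At 72 h the EED226 arrays lie below the DMSO arrays in every panel, by 1.22 for ZNF826P and by 0.56 for RPL22L1.

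Genes of cell proliferation had small negative changes that did not pass. Of 25 genes of replication licensing, which load the MCM helicase on DNA, 24 had a change below 0, with a median of -0.28, and the largest size among the named was that of MCM10, -0.52 ± 0.15 (adjusted p = 0.177). The 34 DNA synthesis genes were all below 0 (median -0.23), with -0.54 for the checkpoint kinase CHEK1 (adjusted p = 0.292). Of 50 mitosis genes 48 were below 0 (median -0.22), with -0.45 for the spindle motor KIF15, and of 22 G1/S cyclin and E2F genes 19 were (median -0.19), with -0.46 for E2F2. No member of these 4 lists passed the test of the change. Other settings called 0 to 2 licensing genes and 0 to 1 mitosis genes lower, and 0 DNA synthesis or G1/S genes. Members of 1 list are not independent of each other, so the share of negative signs carries no p. Negative signs alone were not particular to these lists. Changes were below 0 for 27 of 30 respiratory chain, 12 of 14 heat shock and 27 of 34 ribosome biogenesis and MYC genes. Their medians were smaller in size, -0.06, -0.09 and -0.09. A lower effect with an unadjusted limma p under 0.05 was seen for 14 licensing, 12 DNA synthesis, 11 mitosis and 6 G1/S genes. It was seen for 1 respiratory chain, 1 heat shock and 2 ribosome biogenesis and MYC genes. Over all genes, 1674 of 19775 had such a p in either direction. Ribosomal protein genes had 16 below 0 and 13 above. Over all genes the median change was 0.0011.

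At 72 h itself 24 of the 25 licensing genes were lower with EED226, as were 30 of the 34 DNA synthesis genes, 25 of the 50 mitosis genes and 14 of the 22 G1/S genes, beside 11.2% of all genes. At 48 h the counts were 9, 6, 1 and 3, beside 2.68%. A difference past the threshold at 1 time and not at the other is not a tested change, and the test of the change called none.

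No member of the amino acid response, cholesterol synthesis or fatty acid synthesis lists passed the test of the change. The 33 amino acid response genes, which ATF4 induces when amino acids run short, had a median change of -0.31, which rested on 1 array. Their mean level was 9.20 in DMSO 72 h replicate 3, against 8.40 and 8.38 in the other two of that group and 8.27 to 8.42 in the rest of the 12 arrays. Without that array the median change was -0.06, and leaving out any other gave -0.45 to -0.29. PSAT1, an enzyme of serine synthesis, had -0.73 ± 0.25 (adjusted p = 0.322), and -0.32 without DMSO 72 h replicate 3. Over all genes 71 rose and 4 fell without that array. Between 48 and 72 h their median difference was 0.22 in the DMSO arrays and -0.08 in the EED226 arrays, with no member called in either. The 19 cholesterol synthesis genes had median differences of 0.31 in DMSO, with no member called, and 0.17 in EED226, with 3 called higher; the median change was -0.14. ERO1B, an oxidase of the secretory pathway, had 0.72 ± 0.21 (adjusted p = 0.165), and none of 21 unfolded protein response genes passed.

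The target complex and classical Polycomb targets showed no called change. EED had a change of -0.14 ± 0.07, EZH2 of -0.15 ± 0.11, SUZ12 of -0.14 ± 0.10 and EZH1 of 0.04 ± 0.11 (adjusted p = 0.659 to 0.976); none of the 14 genes of PRC2 subunits and H3K27 demethylases passed. Among 16 PRC1 genes the smallest p was that of CBX2, which reads the mark, with -0.57 ± 0.14 (adjusted p = 0.0792). None of 28 HOX genes or 83 developmental transcription factors passed, with medians of -0.03 and 0.00. DMSO means lay below the lowest array median at both times for 15 of these HOX genes and 59 of these developmental transcription factors. SNAI2, of the latter, had effects of 0.82 at 48 h and 1.04 at 72 h. Of the ribosomal protein, respiratory chain and heat shock lists no member passed either.

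**Figure D5:**
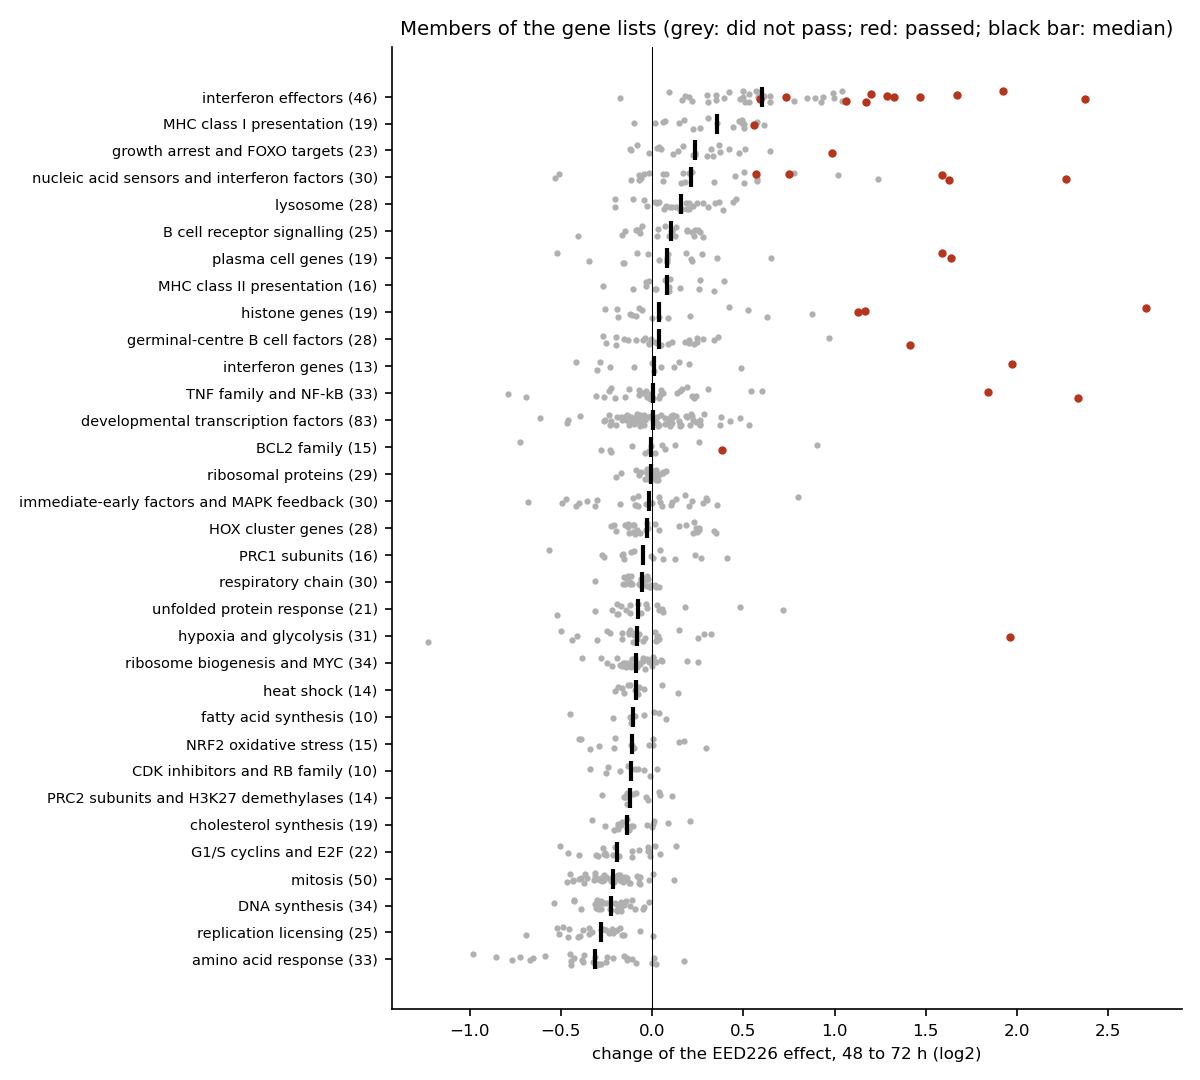
The change of the EED226 effect from 48 to 72 h (log2, horizontal axis) is shown for each measured member of 33 gene lists (points; number of members in brackets), with the list median as a black bar and members that passed in red. The interferon effectors have the highest median, 0.60, and the amino acid response genes the lowest, -0.31, which was -0.06 without DMSO 72 h replicate 3.

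Array quality and cell identity were followed beside these results. Replicate arrays correlated with r of 0.995 or more within the 4 groups. The 3′ minus 5′ difference of the ACTB control probe sets, which grows as RNA degrades, was 3.04 to 3.25 in DMSO and 3.02 to 3.49 in EED226 at 48 h, and 3.05 to 3.16 in DMSO and 3.26 to 3.74 in EED226 at 72 h. It was higher in every EED226 array than in every DMSO array at 72 h. The GAPDH difference was 0.238 to 0.264 in DMSO and 0.281 to 0.366 in EED226 at 48 h. At 72 h it was 0.231 to 0.244 in DMSO and 0.303 to 0.435 in EED226, so the arms were separate at both times. With the ACTB difference as a covariate 115 genes rose and 16 fell, including 88 of the 93 and all 8. Since the ACTB difference itself separated the arms at 72 h, effects of RNA integrity and of treatment cannot be told apart by this fit. The 7 measured B cell markers had mean levels from 10.01 to 10.22 in all 12 arrays. Markers of myeloid cells had mean levels from 3.24 to 3.43, and epithelial and erythroid markers from 3.76 to 4.04, below the array medians. T and NK cell markers had 4.47 to 4.65 and fibroblast and endothelium markers 4.36 to 4.70, above the array medians. None of the 7 B cell, 17 T and NK cell, 13 myeloid or 8 epithelial and erythroid markers passed. PECAM1, an adhesion molecule on the list of 13 fibroblast and endothelium markers that lymphoid cells also express, changed by 1.20 ± 0.22 (adjusted p = 0.00416), and with the probe set brightest in 0 h and DMSO arrays by 0.35 (adjusted p = 0.596).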

How the data were processed

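RNA of Karpas422 cells was measured on 33 Affymetrix arrays in 11 groups of 3, of which 12 arrays enter the estimate of the change of the effect. Per the labels, TRIZOL served for extraction and a kit that labels RNA from its 3′ end for target preparation. The deposited values are log2 expression per probe set. RMA is named in the submitters' processing notes as the authors' method, and its version is not given in the sources used here. RMA normalizes arrays by quantiles, so a shift of all genes together is removed. For arrays, their number limits the precision.

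Of 54675 probe sets, 41097 had 1 gene symbol in the platform annotation, 1801 had several and were left out, 11721 were not named here and 62 were controls. The brightest probe set over all 33 arrays stood for each of the 19775 genes. These include the treated arrays, and the choice can favour probe sets that rose. Contrasts were fitted with limma 3.58.1 in R 4.3.3 (lmFit and eBayes, 11 group means, 22 residual degrees of freedom), two-sided, with Benjamini-Hochberg adjustment over all genes and no filter on dim genes. The fit was also run on simulated arrays with independent noise and planted changes of at least 1 on the log2 scale. That run does not speak for smaller changes or for noise shared between arrays.

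The rule for named genes takes, among genes that passed with a highest group mean of at least 5 and values that do not overlap between times, the 14 largest changes in each direction. It adds the 3 members of each list with the smallest p, and EED, EZH2, EZH1 and SUZ12. It also asked for rises that shrank, falls that eased and genes that moved mainly in DMSO, of which there were 0. Other genes were chosen after their values were seen, mostly as further members of a list, whether or not they passed. The comparison, the 33 gene lists and the 5 marker lists were chosen with earlier results of these data known. Levels are given per array or as mean ± SD, and differences with their limma SE. Other fits used only the 12 arrays, trended robust eBayes, other scalings, array weights, other probe sets, a filter on dim genes, replicate blocks, an RNA integrity covariate and 1 array fewer.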

Additional observations from a re-analysis of the deposited data

Results flagged for a closer look

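The test of the difference between times itself called 93 genes whose EED226 effect was higher at 72 h than at 48 h and 8 whose effect was lower; their values are given above.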

How the results depend on the processing

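The 101 genes kept the direction of their change in every alternative that tested them, which was partly fixed in advance. Fits with only the 12 arrays, trended robust eBayes, dim genes left out or replicate blocks leave the estimate unchanged. So does the fit without DMSO day 6 replicate 3. The number of genes called depended on the setting. Rises and falls numbered 140 and 28 (168 in all) with trended robust eBayes, 148 and 14 (162) with renewed quantile normalization and 208 and 65 (273) with array weights. With only changes of at least 1 on the log2 scale they were 48 and 0 (48 in all). Falls alone moved to 26 with dim genes left out and to 16 with the ACTB covariate. Without DMSO day 6 replicate 3, which enters through the shared spread, 131 genes rose and 16 fell (147 in all), 2338 passed at 48 h and 1073 changed in EED226 arrays. Leaving out 1 of the 12 arrays gave 53 to 86 rises, 2 to 7 falls and 55 to 91 in all, lowest without EED226 72 h replicate 3 (55), DMSO 48 h replicate 1 (58) and DMSO 72 h replicate 1 (64). Of the 93 rises, 49 were called in all 12 of these fits and 33 were lost in at least 6. Of the 8 falls, 2 were called in all and 6 were lost in at least 6. With only the 12 arrays 115 genes rose and 10 fell, including 69 of the 93 and 6 of the 8. Centred array medians gave 72 and 7, including 70 and 6. The mean of probe sets gave 86 and 9, including 66 and 5. Among the 53 rises with other probe sets, 13 had at least 1 of opposite sign.

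The count at 48 h was 3221 with array weights and 1232 to 1868 with 1 array fewer, lowest without EED226 48 h replicate 2. The count of changes in EED226 arrays was 1102 with trended robust eBayes, 1590 with array weights, 1128 with dim genes left out and 341 to 747 with 1 array fewer. The cause of these shifts was not tested. Over 4326 refits of named or called genes, 481 lost a call, 62 gained one and 0 reversed. Many of these refits could not reverse, since they leave the estimate unchanged.

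Replicate numbers paired the arrays in part: same-numbered EED226 and DMSO arrays deviated together with r of 0.151 to 0.169 at 48 h, each best with its own number, but of 0.0584, -0.00879 and 0.233 at 72 h. Between times r was 0.110, 0.131 and 0.188 for DMSO and -0.132, -0.0281 and 0.141 for EED226. Since not every pair was over 0.1, the numbers were not taken as pairs. With the replicate block over all arrays 142 genes rose and 24 fell (166 in all), and 1 gene passed in DMSO arrays; with the replicate block within time 137 rose and 13 fell, including 85 of the 93 and 5 of the 8; ZNF826P, DLEU1, CRYBG1 and H4C8 were among those not called (adjusted p = 0.0606, 0.0689, 0.086 and 0.138). The latter gives no change between times within 1 treatment, since the block lies within time.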
